A study of Rattus norvegicus with 48 samples.

Results

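Acly, Acaca, Acacb, Acss1, Acss2, Acsl3, Acsl4 and Acsl5 encode enzymes that make acetyl-CoA outside the pyruvate dehydrogenase route, carboxylate it, or couple fatty acids to coenzyme A. These 8 genes were chosen by name, and their identifiers came from the study's own gene table. The 8 are 8 of 32624 features in the count files and 8 of the 13050 genes with at least 1 read in each sample. All 8 passed that filter, with a lowest count of 24 reads in a sample for Acss1 and of 543 to 4202 reads for the other 7. Acly, Acaca, Acacb and Acss2 are grouped here as lipogenic enzymes, and Acss1, Acsl3, Acsl4 and Acsl5 as acyl-CoA synthetases.

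Cerebral endothelial cells (CECs), the cells that line brain capillaries and form the blood-brain barrier, were sorted from the cortex of male Wistar-Han rats fed ad libitum (AL rats) or kept without food, for 1 day (F1 rats), 2 days (F2) or 3 days (F3). The sort removed CD11b-positive microglia and then retained CD31-positive cells, and cortical tissue of several rats was pooled for each isolation. Each group has 3 samples from independent experiments, called i, j and k here, and each sample has 4 technical replicates whose reads were summed. The ages of the rats are not given in the sources used here.

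Citrate that leaves mitochondria is cleaved in the cytosol to acetyl-CoA, which is also formed from acetate, and acetyl-CoA carboxylases turn it into malonyl-CoA, the building unit of fatty acid synthesis and an inhibitor of fatty acid entry into mitochondria. A long-chain fatty acid that enters a cell must first be joined to coenzyme A by a synthetase of the Acsl family before it can be oxidized, stored or built into membranes. In liver and fat, food deprivation lowers the lipogenic enzymes, whereas brain capillaries meet the same change in plasma fuels at the wall of the vessel.

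Of the 8 genes, only Acsl3, a long-chain acyl-CoA synthetase of the endoplasmic reticulum and lipid droplets, changed in any of the 6 pairwise comparisons. Its normalized counts were lower in F1 and F3 rats than in AL rats (LFC −0.36 and −0.42), whereas F2 rats overlapped AL rats. The 4 lipogenic enzymes and the other 3 synthetases did not pass the test in any comparison. Normalized counts are reads scaled to a common library size, LFC is the Log2 of the fold change, and a gene is said to have changed, risen or fallen where edgeR's quasi-likelihood test gave a Benjamini-Hochberg adjusted p of at most 0.05 over the 13050 genes. Counts are not corrected for transcript length, so levels are compared between samples and not between genes.

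Depth was similar throughout, with 20718644 to 25960874 assigned reads per sample. The variance of technical replicates was 1.00 to 1.02 times that of counting alone over all genes. Between samples of a group the same measure, a chi-square divided by its degrees of freedom, was 3.06 for Acss2 to 20.3 for Acsl5, so that most of the error of these genes was spread between isolations. The endothelial markers with an identifier, Pecam1, Slco1a4 and Slc2a1, were abundant in every sample (371292 to 515935 summed normalized counts). Of the markers of other cells, 3 of 8 for pericytes and smooth muscle (Abcc9, Anpep and Acta2) summed to 1689 to 4744 normalized counts. For astrocytes 2 of 6 summed to 1535 to 2279, nearly all from Aldoc (1530 to 2277), with Acsbg1 at 2.0 to 14.9. For microglia and macrophages 5 of 7 summed to 47.3 to 123.4. The single genes available for oligodendrocytes, neurons and red blood cells had 15.6 to 34.1, 3.0 to 14.7 and 36.7 to 110.3 normalized counts. The study's transcriptome table lists only genes with at least 1 read in each sample, so markers absent from a sample had no identifier here. In such bulk samples fewer cells of a type and less RNA per cell cannot be told apart.

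The sequences before the transcription start are shown for Acsl3, for Acsl1, whose values followed those of Acsl3 most closely among the 1254 genes compared that had a symbol, and for Acsl4 and Acsl5, the long-chain synthetases that did not pass the test. They come from RefSeq on the build GRCr8, which is not the build of the counts (Rnor_6.0), and each runs over the 250 bases before the start, 5′ to 3′ on the strand of the gene. Acsl3 is at chr9:87563351-87563600 on the plus strand, Acsl1 at chr16:52532393-52532642 on the minus strand, Acsl4 at chrX:110803262-110803511 on the minus strand and Acsl5 at chr1:264294601-264294850 on the plus strand. Capitals mark GGGCGG, the GC box, on either strand.
Acsl3: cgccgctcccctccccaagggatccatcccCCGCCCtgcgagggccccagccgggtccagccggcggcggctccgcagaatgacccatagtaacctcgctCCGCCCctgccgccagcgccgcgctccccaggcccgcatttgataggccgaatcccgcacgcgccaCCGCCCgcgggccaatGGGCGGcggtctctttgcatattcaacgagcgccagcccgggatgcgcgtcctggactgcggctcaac
Acsl1: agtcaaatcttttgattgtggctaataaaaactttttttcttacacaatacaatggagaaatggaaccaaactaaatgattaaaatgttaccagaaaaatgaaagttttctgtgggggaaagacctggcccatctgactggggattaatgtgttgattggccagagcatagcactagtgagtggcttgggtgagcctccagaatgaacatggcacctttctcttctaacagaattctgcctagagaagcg
Acsl4: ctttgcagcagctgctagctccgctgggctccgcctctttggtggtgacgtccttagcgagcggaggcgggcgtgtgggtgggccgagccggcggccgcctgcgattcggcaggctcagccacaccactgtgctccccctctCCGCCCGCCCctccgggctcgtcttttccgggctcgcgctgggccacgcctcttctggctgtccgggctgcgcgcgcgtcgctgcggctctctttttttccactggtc
Acsl5: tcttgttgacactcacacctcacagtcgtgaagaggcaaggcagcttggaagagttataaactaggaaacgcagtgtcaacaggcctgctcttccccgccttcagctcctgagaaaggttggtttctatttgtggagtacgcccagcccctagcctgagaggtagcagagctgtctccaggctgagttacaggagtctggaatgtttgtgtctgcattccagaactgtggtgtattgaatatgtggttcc

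The Acsl3 sequence is 72.4% G and C and holds 4 GC boxes, against 70.4% and 2 overlapping GC boxes in Acsl4. Acsl5 has 50.4% G and C and Acsl1 40%, and neither holds a GC box. A GC box was found in 30.5% of the 33469 RefSeq promoter sequences of the same length. The half-site AGGTCA of nuclear receptors, present in 14.1% of these sequences, was in none of the 4, nor was the E-box CACGTG (5.59%) or the sterol regulatory element TCACNCCAC (0.974%). The letters CCAAT (34%) occurred in Acsl3 and Acsl1. All motifs were searched on both strands, and a match or its absence in this window is a description only. Among the lipogenic enzymes in the table, Acly had 3 GC boxes, Acss2 4 and Acacb none, with 1 AGGTCA in Acacb. Acaca and Acss1 were not in the promoter table.

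Acsl3 (ENSRNOG00000014718) had 1974, 1595 and 2029 normalized counts in AL samples i, j and k, a mean of 1866 ± 236 (SD, n = 3). F1 samples had 1367, 1444 and 1565 (1459 ± 99.9), F2 samples 1879, 1971 and 2040 (1963 ± 80.5) and F3 samples 1302, 1466 and 1428 (1399 ± 85.7). The order of the means was F2, AL, F1 and F3: all 6 samples of F1 and F3 rats lay below all 6 samples of AL and F2 rats. AL sample j was the lowest of the AL samples, and it was above the highest F1 sample by a small margin. The neighbours F2 and AL overlapped, as did F1 and F3.

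After 1 day without food Acsl3 differed from AL rats by −21.8% (95% confidence interval −31.8% to −10.4%, LFC −0.36 ± 0.09 (SE), adjusted p = 0.0359 by edgeR). Of the 8 genes 1 was called, and the share called among all genes was 6.56%. Groups without overlap were found for 1 of the 8 and for 28.7% of all genes. This call rested on few samples: the adjusted p rose to 0.143 when AL sample i was left out, to 0.135 for AL sample k, 0.126 for F1 sample i, 0.128 for F1 sample j and 0.0559 for F3 sample k, with LFC between −0.35 and −0.29 in these 5 fits.

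After 2 days no member differed from AL rats. Acsl3 differed by 5.23% (95% confidence interval −8.15% to 20.6%, LFC 0.07 ± 0.09, adjusted p = 0.783), and without AL sample j its LFC was −0.03. No member was called, against 0.858% of all genes, at an unadjusted p under 0.05 there was 1 of 8 members (Acsl4) beside 12.8% of all genes, and DESeq2 also called none of the 8. None of the 8 had groups without overlap, against 15.5% of all genes.

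After 3 days Acsl3 differed from AL rats by −25% (95% confidence interval −34.6% to −14%, LFC −0.42 ± 0.09, adjusted p = 0.00955 by edgeR). It was the 1 member called, beside 12% of all genes, and the 1 member without overlap, beside 35.6% of all genes. The adjusted p was just above the threshold when AL sample i (0.0526), AL sample k (0.0527) or F3 sample i (0.0569) was dropped.

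The fasting days differed from each other for Acsl3. From F1 to F2 rats its level differed by 34.6% (95% confidence interval 17.4% to 54.3%, LFC 0.43 ± 0.09, adjusted p = 0.0411 by edgeR) and from F2 to F3 rats by −28.8% (−37.9% to −18.3%, LFC −0.49 ± 0.09, adjusted p = 0.0106). F3 and F1 rats did not differ by this test (LFC −0.06 ± 0.09, 95% confidence interval −0.26 to 0.14, adjusted p = 0.996). In the joint test of the 4 groups the adjusted p of Acsl3 was 0.00601, and it was the 1 member called, against 10.1% of all genes. These comparisons share samples: the F2 samples stand in both of the first 2, and the AL samples in all comparisons with AL rats.

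For F2 against F1 rats 1 of 8 members and 1.43% of all genes were called, with groups apart for 1 of 8 and 21.8%. For F3 against F2 rats the counts were 1 of 8 and 5.94%, with groups apart for 1 of 8 and 26.8%. For F3 against F1 rats no member and no gene (0%) passed edgeR's test, and DESeq2 called 24. An unadjusted p under 0.05 by edgeR was found for 579 genes, or 4.44%. That is below the share this threshold gives when no gene differs. The groups did not overlap there for Acly and Acaca, 2 of 8 members beside 13% of all genes. The call of Acsl3 in F3 against F2 rats was lost only without F3 sample i (adjusted p = 0.0629). That in F2 against F1 rats was lost without any 1 of the 6 samples compared (0.0533 to 0.183), without F3 sample j (0.0567) or k (0.0657), and when only those 6 samples were fitted (0.0622), with LFC between 0.38 and 0.48.

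Markers of other cells and of endothelium also had ranges apart between some of the groups, which was not tested. Among all genes, groups were apart for 28.7% in F1, 15.5% in F2 and 35.6% in F3 against AL rats. The paper lists Slc2a1 and Slco1a4 among the transporters whose expression changed with fasting. The summed pericyte and smooth muscle markers ranged from 2066 to 2365 normalized counts in F1 rats and from 2451 to 4744 in F2 rats, without overlap, and from 1908 to 4372 in AL and 1689 to 4443 in F3 rats. Singly, Anpep was apart in F1 (227.0 to 283.0) and F2 rats (376.5 to 577.4), as were 21.8% of all genes. Abcc9 (1603 to 1816 and 1809 to 3980) and Acta2 (126.1 to 266.7 and 235.6 to 365.9) overlapped between F1 and F2 rats. With Abcc9, a pericyte gene, as a covariate Acsl3 had an LFC of 0.46 and an adjusted p of 0.0635 in F2 against F1 rats, and its other 3 calls stayed. The endothelial gene Pecam1 was higher in F1 rats (35876 to 38792 normalized counts) than in AL (31655 to 35586), F2 (31872 to 32294) and F3 rats (33083 to 34609). Slco1a4, an organic anion carrier of brain endothelium, was at 77320 to 84982 in AL and 74981 to 75381 in F2 rats, above F1 (57347 to 68359) and F3 rats (56384 to 66826), whereas Slc2a1, the endothelial glucose transporter, was higher in all fasted samples (355198 to 416026) than in AL samples (257320 to 309123). Over the 12 samples Pearson's r with Acsl3, as a description, was 0.83 for Slco1a4, −0.73 for Pecam1, −0.59 for Slc2a1, 0.42 for Anpep and Aldoc, 0.25 for Abcc9 and 0.13 for Acta2. The astrocyte markers Aldoc and Acsbg1 summed to 1829 to 2164 in AL rats and 1549 to 1596 in F3 rats. Nearly all of that sum was Aldoc (1825 to 2155 in AL and 1545 to 1588 in F3 rats). Acsbg1 had few counts and overlapped (3.0 to 9.2 in AL and 4.0 to 7.9 in F3 rats). The part of these differences in the values of Acsl3 was not tested beyond the covariate.

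**Figure D1:**
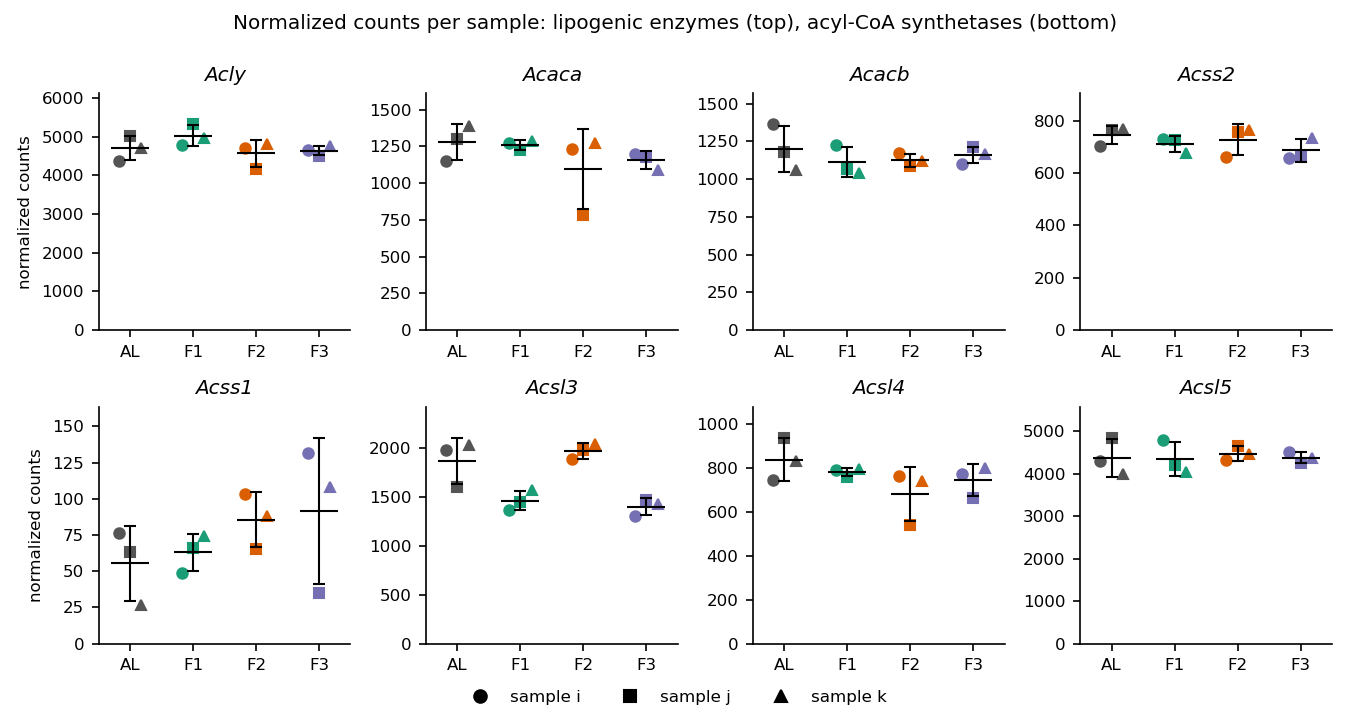
Normalized counts (vertical axes, from 0) of the 8 genes in the 4 groups. Symbols are samples i, j and k, horizontal bars are means and vertical bars SD (n = 3). The Acsl3 samples of F1 and F3 rats all lie below those of AL and F2 rats, whereas the groups overlap for most other genes and F2 sample j is low for Acaca and Acsl4.

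None of the lipogenic enzymes passed the test. Acly (ENSRNOG00000016924), the ATP citrate lyase that splits cytosolic citrate, had 4385, 5006 and 4703 normalized counts in the AL samples, 4788, 5326 and 4966 in the F1, 4715, 4163 and 4822 in the F2 and 4656, 4511 and 4757 in the F3 samples. The F1 mean (5027 ± 274) was the highest and the F2 mean (4567 ± 354) the lowest, and no group was separated from AL rats. The LFC against AL rats was 0.10 in F1 (adjusted p = 0.531 by edgeR), −0.04 in F2 and −0.02 in F3 rats. The 95% confidence interval of the latter, −12.1% to 11%, shows how large a change these samples leave possible.

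Acaca (ENSRNOG00000034013), the acetyl-CoA carboxylase of the cytosol, had 1150, 1299 and 1391 normalized counts in the AL samples, 1272, 1224 and 1289 in the F1, 1234, 781 and 1276 in the F2 and 1200, 1181 and 1089 in the F3 samples. F2 sample j stood well below all other samples, and it set the F2 spread (1097 ± 275, SD, n = 3). The LFC of F2 against AL rats was −0.22 ± 0.14 (adjusted p = 0.558 by edgeR), and of F3 against AL rats −0.15 ± 0.14 (adjusted p = 0.591). Without F2 sample j the LFC of F2 against AL was −0.03, and the order of F2 and F3 rats turned, from an LFC of F3 against F2 of 0.08 to −0.12, both without a call.

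Acacb (ENSRNOG00000000658), the carboxylase at the outer mitochondrial membrane whose malonyl-CoA restrains fatty acid import, had 1364, 1178 and 1058 normalized counts in the AL samples, 1227, 1070 and 1041 in the F1, 1171, 1085 and 1118 in the F2 and 1102, 1211 and 1168 in the F3 samples. The AL samples had the widest spread (1200 ± 154) and covered nearly all fasted samples. The LFC was −0.11 in F1, −0.09 in F2 and −0.05 in F3 rats against AL rats, each with an SE of 0.09 and adjusted p between 0.563 and 0.799. The Log2 ratio of Acacb over Acaca reads within a sample was −0.10 ± 0.32 in AL, −0.19 ± 0.13 in F1, 0.07 ± 0.36 in F2 and 0.00 ± 0.12 in F3 rats (SD, n = 3), and these ranges overlapped.

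Acss2 (ENSRNOG00000018755), which makes acetyl-CoA from acetate in the cytosol and nucleus, had 704, 765 and 768 normalized counts in the AL samples and 730, 728 and 678 in those of F1 rats. F2 samples had 661, 759 and 766 and F3 samples 659, 665 and 736. It had the lowest spread over the 12 samples of the 8 genes in percent of its mean, with a coefficient of variation of 6.03%. F3 rats had the lowest mean (687 ± 42.6 against 746 ± 36.2 in AL rats), with an LFC of −0.12 ± 0.08 (95% confidence interval −0.30 to 0.06, adjusted p = 0.407 by edgeR).

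**Figure D2:**
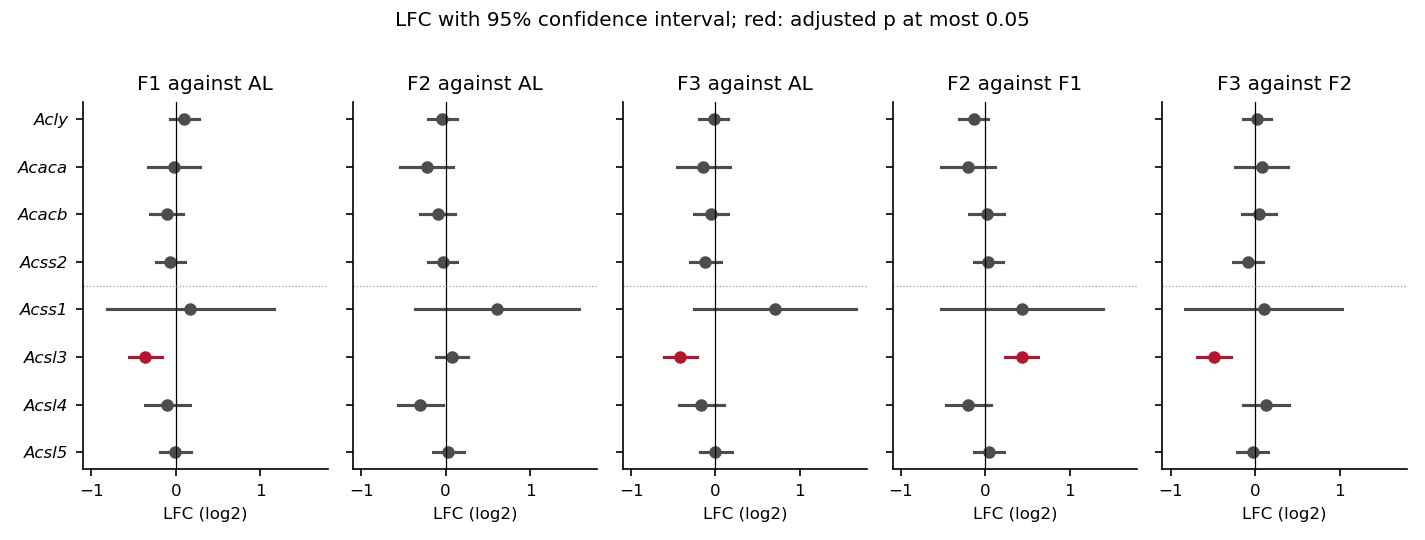
LFC on the Log2 scale (horizontal axes) of the 8 genes in 5 comparisons, points with 95% confidence intervals from the edgeR fit, red where the adjusted p was at most 0.05. Acsl3 is the 1 red gene, to the left of 0 in F1 against AL, F3 against AL and F3 against F2 and to the right in F2 against F1, and the interval of Acss1 is the widest.

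Among the acyl-CoA synthetases, Acsl5 (ENSRNOG00000016265), a long-chain synthetase of mitochondria and the endoplasmic reticulum, had the flattest means. AL samples had 4291, 4852 and 3983 normalized counts, F1 samples 4802, 4210 and 4050, F2 samples 4314, 4651 and 4460 and F3 samples 4515, 4251 and 4378. The group means lay between 4354 and 4475, and every pair of groups overlapped. Against AL rats the LFC was −0.01 in F1, 0.03 in F2 and 0.00 in F3 rats, and the 95% confidence interval of the latter was −11.9% to 13.7% (adjusted p = 0.993 by edgeR). Within a sample the Log2 ratio of Acsl3 over Acsl5 was −1.23 ± 0.33 in AL, −1.58 ± 0.22 in F1, −1.19 ± 0.06 in F2 and −1.65 ± 0.13 in F3 rats (SD, n = 3), without overlap between F2 rats (−1.24 to −1.13) and F1 (−1.81 to −1.37) or F3 rats (−1.79 to −1.54).

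Acsl4 (ENSRNOG00000019180), which prefers arachidonate and other polyunsaturated fatty acids, had 744, 936 and 828 normalized counts in the AL samples, 791, 758 and 792 in the F1, 761, 538 and 739 in the F2 and 771, 663 and 797 in the F3 samples. As for Acaca, F2 sample j was the lowest of the 12. F2 rats differed from AL rats by −18.7% (95% confidence interval −32.5% to −2.17%, LFC −0.30 ± 0.12), with an unadjusted p of 0.031 and an adjusted p of 0.331 by edgeR. Without F2 sample j the LFC was the smallest of all alternatives, −0.16. In the other comparisons with AL rats the adjusted p of Acsl4 was 0.709 in F1 and 0.441 in F3 rats.

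Acss1 (ENSRNOG00000007102), the acetyl-CoA synthetase of the mitochondrial matrix, was the least counted of the 8. It had 76.4, 63.2 and 26.7 normalized counts in the AL samples, 48.8, 66.2 and 74.0 in the F1, 103, 65.4 and 88.2 in the F2 and 132, 34.8 and 108 in the F3 samples. The means ran from AL (55.4 ± 25.8) over F1 (63.0 ± 12.9) and F2 (85.6 ± 19.1) to F3 rats (91.6 ± 50.6), but F3 samples ranged from below to above nearly all others. The LFC of F3 against AL rats was 0.71 ± 0.44 (95% confidence interval −0.25 to 1.67, adjusted p = 0.352 by edgeR), so that the interval holds both no change and LFC above 1. Single samples moved this value widely: the LFC was 1.10 without F3 sample j (adjusted p = 0.0592 by edgeR), 0.35 without F3 sample i (0.738) and 0.40 without AL sample k (0.63).

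The 8 genes did not vary together over the 12 samples. Pearson's r of Log2 CPM, given as a description over samples that share the groups, was 0.83 for Acaca with Acsl4, 0.70 for Acly with Acsl4 and 0.67 for Acly with Acaca, and these fell to 0.43, 0.42 and 0.33 without F2 sample j. Acsl3 had r between −0.40 (Acly) and 0.39 (Acss2) with the other 7. With the available markers of pericytes and smooth muscle, Acss1 had r of 0.80 (Abcc9), 0.71 (Anpep) and 0.41 (Acta2). Its r with Abcc9 was 0.77 without the 2 samples farthest from the Abcc9 median. With Abcc9 as a covariate the LFC of Acss1 in F3 against AL rats was 0.69 (adjusted p = 0.0801), and its LFC in F2 against F1 rats went from 0.44 to −0.31.

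The lipogenic enzymes and the acyl-CoA synthetases were compared by counts and medians, since 4 genes are not replicates and no test was made. Of the lipogenic enzymes none was called in any comparison, and of the synthetases 1 (Acsl3) in 4 of the 6. The median LFC against AL rats was −0.04 in F1, −0.07 in F2 and −0.08 in F3 rats for the lipogenic enzymes. For the synthetases it was −0.05, 0.05 and −0.08. Over all genes the median was −0.00, −0.01 and −0.01, and the middle of the distribution, between the quartiles, ran from −0.16 to 0.16 in F1 and from −0.17 to 0.18 in F3 rats. Both medians lay between the quartiles of all genes at every day (−0.13 to 0.13 in F2 rats). The lipogenic enzymes spanned LFC of −0.22 to −0.03 in F2 and −0.15 to −0.02 in F3 rats, all 4 below 0 on both days. Of the 13050 genes, 6805 in F2 and 6644 in F3 rats were below 0. As samples were left out, the F3 values of Acly and Acacb reached 0.03 and 0.06. The synthetases spanned −0.30 to 0.61 in F2 and −0.42 to 0.71 in F3 rats.

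By the rule of most similar pattern, the 3 genes closest to Acsl3 among 1254 genes with a symbol were Acsl1 (r = 0.951 over the 12 samples), Acsf2 (r = 0.946) and Slc43a2 (r = 0.942). Most symbols available begin with A, B or C, so that genes of the Acs names were over-represented among the genes compared. Acsl1, the long-chain synthetase linked to fatty acid oxidation and triglyceride synthesis, had 1239 ± 123 normalized counts in AL, 1006 ± 38.4 in F1, 1269 ± 77.3 in F2 and 968 ± 35.6 in F3 rats (SD, n = 3). It fell in F1 (LFC −0.30, adjusted p = 0.0422 by edgeR) and F3 rats (LFC −0.36, adjusted p = 0.0112) against AL rats, and in F3 against F2 rats (LFC −0.39, adjusted p = 0.0151), and missed the threshold in F2 against F1 rats (LFC 0.33, adjusted p = 0.0583).

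Acsf2, a mitochondrial acyl-CoA synthetase, had 1768 ± 135 normalized counts in AL, 1607 ± 45.8 in F1, 1870 ± 81.0 in F2 and 1489 ± 88.4 in F3 rats. It fell in F3 against AL (LFC −0.25, adjusted p = 0.0417 by edgeR) and against F2 rats (LFC −0.33, adjusted p = 0.0205). Slc43a2, a carrier of large neutral amino acids, had 1432 ± 140 in AL, 1097 ± 135 in F1, 1451 ± 31.6 in F2 and 1085 ± 168 in F3 rats. It fell in F3 against AL (LFC −0.40, adjusted p = 0.0358 by edgeR) and against F2 rats (LFC −0.42, adjusted p = 0.045). All 3 had their higher means in AL and F2 rats and their lower means in F1 and F3 rats, which is the pattern they were selected for.

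**Figure D3:**
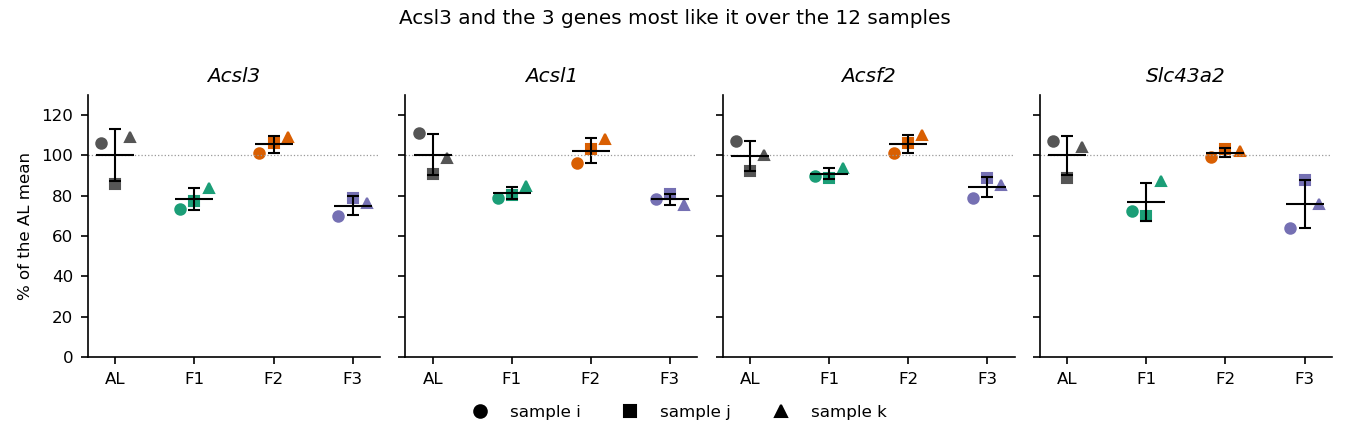
Normalized counts as a percent of the AL mean (vertical axis, from 0) for Acsl3 and the 3 genes most like it, by group. Symbols are samples i, j and k, horizontal bars are means and vertical bars SD (n = 3). In each gene the means of F1 and F3 rats are below those of AL and F2 rats.

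Other genes of the pathway were taken from 8 lists with 97 symbols, of which 28 had an identifier and passed the filter. None of the genes for carnitine-dependent entry into mitochondria or for the AMP-activated kinase had an identifier in the shortened copy of the gene table used here, and they are not analysed here. Against AL rats 2 of the 28 rose and 1 fell in F1, none changed in F2 by edgeR's test, and 3 rose and 5 fell in F3 rats, beside 6.56%, 0.858% and 12% of all genes called in either direction.

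In the list of genes around citrate and cytosolic acetyl-CoA, 3 of 10 symbols had an identifier. Of these 3 genes 2 fell in F3 against AL rats, where 12% of all genes were called. Aco1, the cytosolic aconitase that also acts as an iron sensor, went from 1045 ± 104 to 794 ± 98.9 normalized counts (LFC −0.40, adjusted p = 0.0207 by edgeR). Acat2, the cytosolic thiolase that starts sterol synthesis, went from 345 ± 49.6 to 232 ± 48.3 (LFC −0.57, adjusted p = 0.0237).

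Of the 7 other acyl-CoA synthetases, Acsl1 fell in F1 rats and Acsl1 and Acsf2 in F3 rats, with the values above, and none rose. The fatty acid transport protein Slc27a1 had an LFC of 0.24 in F1 rats without a call. None of 6 acyl-CoA thioesterases and none of 5 acyl-CoA binding proteins changed against AL rats, although Acot2, a mitochondrial thioesterase, fell in F3 against F2 rats (LFC −0.47, adjusted p = 0.0324 by edgeR). The Acot2 means were 327.5 in AL, 361.4 in F1, 468.8 in F2 and 338.5 in F3 rats, with F2 against AL rats short of a call (LFC 0.52, adjusted p = 0.0573 by edgeR). The list of fatty acid synthesis had identifiers only for Brca1 and Bcl6, neither of which is an enzyme of the pathway, and neither was called.

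The list on membrane acyl chains held 5 acylglycerolphosphate acyltransferases, which use acyl-CoA to make phosphatidic acid. Agpat2 rose from 875 ± 346 normalized counts in AL to 1772 ± 126 in F1 (LFC 1.02, adjusted p = 0.0286 by edgeR) and 1996 ± 380 in F3 rats (LFC 1.19, adjusted p = 0.00783). In F2 rats Agpat2 stayed near its F1 level, at 1687 ± 318, without a call against AL rats (LFC 0.95, adjusted p = 0.108 by edgeR). Agpat4 rose in F1 (LFC 0.36, adjusted p = 0.0286) and F3 rats (LFC 0.46, adjusted p = 0.00443), and was at 948 ± 23.5 in F2 rats against 952 ± 84.7 in AL rats. Agpat5 rose (LFC 0.26, adjusted p = 0.0411) and Agpat1 fell (LFC −0.28, adjusted p = 0.0198) in F3 rats only among the comparisons with AL rats, and Agpat3 was not called.

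**Figure D4:**
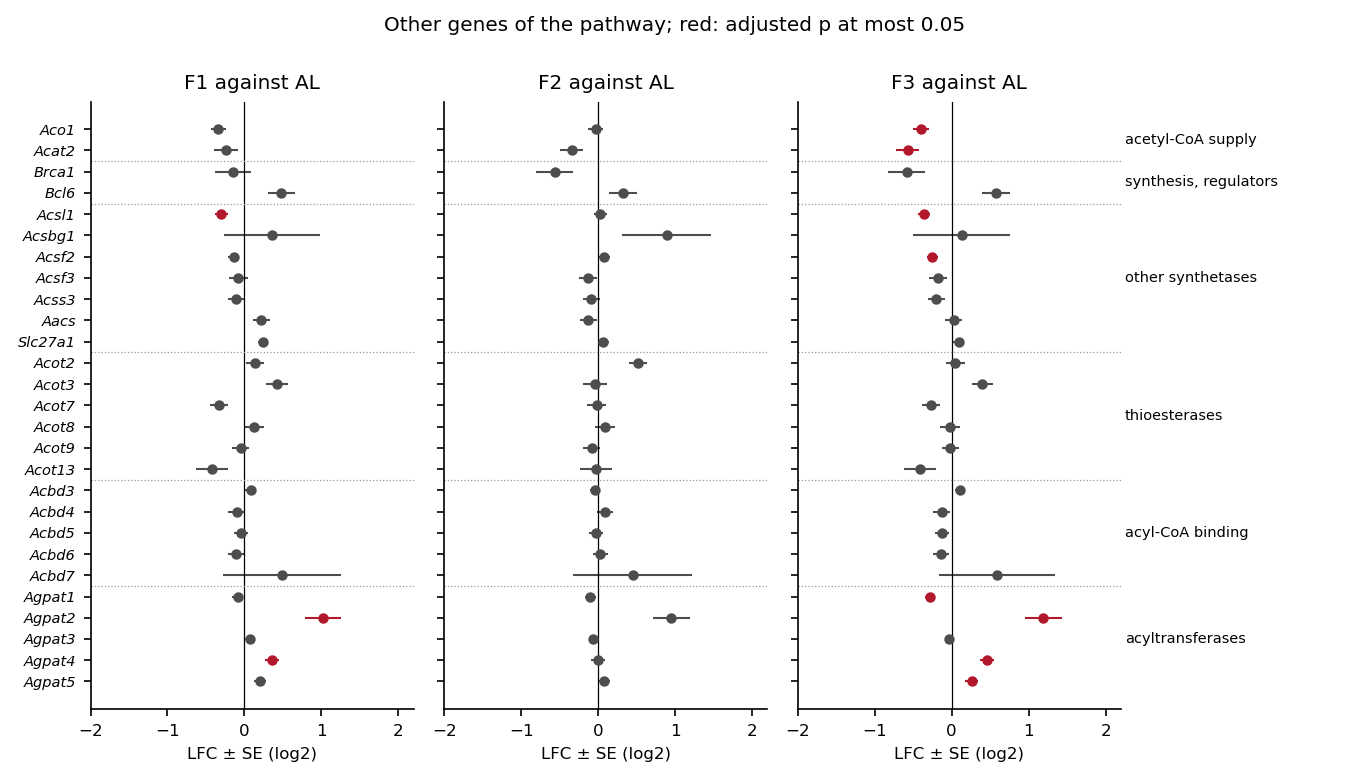
LFC with its SE on the Log2 scale (horizontal axes) against AL rats for 27 of the 28 other genes of the pathway, grouped by list and separated by dotted lines, red where the adjusted p was at most 0.05. Red points are 3 in F1, none in F2 and 8 in F3 rats, where Agpat2 is farthest to the right and Acat2 farthest to the left among them.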

How the data were processed

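Polyadenylated RNA of sorted CECs was sequenced from strand-specific libraries. Per the labels and the methods, the authors removed poor reads, mapped the rest with STAR to Rnor_6.0 (Ensembl annotation), dropped reads with several matches and deposited raw counts of reads per gene from HTSeq 0.5.3. Whether strand was used in counting is not given in the sources used here, so reads from overlapping genes on opposite strands may be shared. The labels of 1 technical replicate (d, F1 sample k) disagree on the fast. It was kept with F1 by its title, and an alternative leaves it out.

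Reads were summed over the 4 technical replicates of each of 12 samples (48 files). Genes with at least 1 read in each sample were tested in R 4.3.3 with edgeR 4.0.16 (TMM normalization, robust quasi-likelihood test, 1 model of 4 group means), with Benjamini-Hochberg adjustment and a threshold of 0.05. Normalized counts are scaled by the TMM library sizes to their mean. SE and 95% confidence intervals come from the same fit, and correlations were made on Log2 CPM (prior count 2). P-values measure the spread between 3 independent experiments per group.

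The 8 genes, the pathway lists and the marker lists were chosen with earlier results of these data known. Named genes were the 8 members, genes of the lists called against AL rats with a mean of at least 100 normalized counts (at most 3 in each direction), and the 3 genes most correlated with a called member. Slco1a4, Slc27a1, Acot2, Brca1, Bcl6 and Agpat3 were named outside this rule after their values were seen. The values of 1 gene of the lists are not reported here. Symbols came from the copies of the study's gene tables used here, 1 of them shortened, except Pecam1, taken from its name in the count files. In all 2043 of the 13050 genes were paired, mostly early in the alphabet. Genes without a pair entered the fit but are not named. Alternatives were DESeq2 1.42.0, other scalings and filters, only the samples compared, a replicate block, each sample left out and technical replicate d left out. Added after seeing the data were a fit without robust estimation, thinning to 20718644 reads and the pericyte covariate.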

Additional observations from a re-analysis of the deposited data

Results flagged for a closer look

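The effect of fasting on Acsl3 against AL rats differed between fasting days by a direct test: between day 2 and day 1 with an LFC of 0.43, and between day 3 and day 2 with an LFC of −0.49, both past the edgeR threshold. Over 25 alternatives the call between day 2 and day 1 held in 15, and that between day 3 and day 2 in 24. Groups of 3 samples are too small for a test of single outlying samples. The cause of the difference between days was not tested.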

How the results depend on the processing

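Over 25 alternatives no member other than Acsl3 was called in any pairwise comparison. The number of members called stayed at its value in all alternatives except that it ranged from 0 to 1 when samples were left out (for the 4 comparisons in which Acsl3 was called) and was 0 for F2 against F1 with only the 6 samples compared and with the pericyte covariate. The replicate block kept the calls of Acsl3 (LFC −0.36, −0.41, 0.43 and −0.49 for F1 and F3 against AL, then for day 2 over day 1 and day 3 over day 2) but gave 108 genes in place of 186 for F2 against F1 and 1 in place of 0 for F3 against F1. Samples with the same letter were at most weakly alike: their 18 correlations ran from −0.0866 to 0.187, 3 above 0.1. Their median was 0.0338, against −0.0199 between other letters, and 8 of 12 samples matched their own letter best.

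DESeq2 called 359 genes for F2 against AL, 616 for F2 against F1, 1242 for F3 against F2, 24 for F3 against F1 and 2090 in the joint test. With only the 6 samples compared, 0 genes were called for F2 against AL, 56 for F2 against F1, 262 for F3 against F2 and 9 for F3 against F1. Without a filter 9 were called for F3 against F1, and with the pericyte covariate 91 for F2 against F1. Leaving out samples gave 308 to 1451 genes for F1, 35 to 162 for F2 and 792 to 2368 for F3 against AL, 0 to 217 for F2 against F1, 164 to 783 for F3 against F2, 0 to 6 for F3 against F1 and 739 to 1784 in the joint test. Each sample except AL j moved at least 1 of these counts by over 1.5 times, the lowest F1 count coming without F1 j and the highest F1 and F3 counts without F2 j.

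Directions of uncalled differences turned as samples were left out. Against AL the LFC ran from −0.09 to 0.04 (Acaca, F1), −0.15 to 0.48 (Acss1, F1), −0.08 to 0.07 (Acsl5, F1), −0.08 to 0.02 (Acly, F2), −0.18 to 0.01 (Acacb, F2), −0.07 to 0.03 (Acss2, F2), −0.03 to 0.14 (Acsl3, F2), −0.03 to 0.11 (Acsl5, F2), −0.05 to 0.03 (Acly, F3) and −0.13 to 0.06 (Acacb, F3). Between fasting days it ran from −0.03 to 0.09 (Acacb) and −0.01 to 0.12 (Acsl5) for F2 against F1, from −0.04 to 0.06 (Acly), −0.12 to 0.20 (Acaca), −0.26 to 0.49 (Acss1) and −0.01 to 0.22 (Acsl4) for F3 against F2, and from −0.11 to 0.01 (Acsl4) and −0.04 to 0.09 (Acsl5) for F3 against F1. With the pericyte covariate it turned to 0.02 for Acaca in F1 against AL, and to −0.02 for Acacb and −0.31 for Acss1 in F2 against F1. The cause was not tested.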
